A study of Mus musculus with 8 samples.

Results

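The miR-99, miR-100 and miR-125 families were measured in mouse kidney 24 h after lipopolysaccharide (LPS) with Agilent mouse miRNA arrays. The 6 mature miRNAs described are mmu-miR-99a-5p, mmu-miR-99b-5p, mmu-miR-100-5p, mmu-miR-125a-5p, mmu-miR-125a-3p and mmu-miR-125b-5p, chosen by name among the 1881 mouse miRNAs on non-control spots of the array, and all 6 were present. LPS is a component of the outer membrane of Gram-negative bacteria, and its injection is used as a model of septic acute kidney injury. Per the labels, 4 arrays carried kidney RNA of the LPS model, in which 10 µg of LPS for each g of mouse was injected intraperitoneally. The other 4 carried kidney RNA of the sham model, in which normal saline was injected. The labels used here name no strain, age or sex. They number the samples within a group without saying whether an array stands for 1 animal, so the p-values describe the spread among these samples, and that spread may be technical.

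MicroRNAs bind messenger RNAs mainly through their seed, bases 2 to 8 counted from the 5′ end, and lower the output of those messages. The miR-99 and miR-100 miRNAs are known for repressing mTOR and the IGF1 receptor, which drive growth. The miR-125 miRNAs are the vertebrate relatives of the worm developmental miRNA lin-4, are known for repressing Lin28, and have been tied to inflammation: in mouse macrophages miR-125b targets Tnf, and in human cells miR-125a and miR-125b target TNFAIP3, a brake on NF-κB. In vertebrate genomes the families lie together with let-7 genes in shared clusters.

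The mature sequences are shown because their seeds define the families and because the close similarity of some members bears on what the probes can separate. They are RefSeq entries (GRCm38.p6), 5′ to 3′, with the seed in capitals, and all 6 members matched.
miR-99a-5p: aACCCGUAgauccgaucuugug
miR-99b-5p: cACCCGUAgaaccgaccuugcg
miR-100-5p: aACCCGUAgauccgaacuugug
miR-125a-5p: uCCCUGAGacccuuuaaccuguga
miR-125b-5p: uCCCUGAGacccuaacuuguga
miR-125a-3p: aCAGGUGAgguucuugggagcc

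The first 3 shared 1 seed and the 5p arms of miR-125a and miR-125b another, while miR-125a-3p, the opposite arm of the miR-125a hairpin, stood alone. miR-99a-5p and miR-100-5p differed at 1 of 22 bases, U16A, counted from the 5′ end with the miR-99a base first. miR-99b-5p differed from each of them at 4 bases. Aligned with a gap, miR-125a-5p and miR-125b-5p shared 21 bases. The Mir125a hairpin on chromosome 17 (GRCm38.p6 chr17:17830812-17830879, plus strand) is given here because it is the one hairpin from which both arms were detected, with the 5p and 3p arms in capitals.
Mir125a: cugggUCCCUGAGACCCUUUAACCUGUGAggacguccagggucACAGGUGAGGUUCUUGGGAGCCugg

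In GRCm38.p6, Mir99b (mature chr17:17830194-17830215), Mirlet7e and Mir125a lay within 0.661 kb of each other, inside the span of the protein-coding gene Spaca6. Mir100 (mature chr9:41531437-41531458), Mirlet7a-2 and Mir125b-1 (mature chr9:41581940-41581961) spanned 50.5 kb inside the long non-coding gene Mir100hg. Mir99a (mature chr16:77598940-77598961), Mirlet7c-1 and Mir125b-2 (mature chr16:77646279-77646300) spanned 47.3 kb, and no other gene in the table used spanned them. The table gives gene spans without exons. Mature miR-125b-5p is the same molecule from both of its genes, so its signal could not be split between chromosomes 9 and 16.

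**Figure D1:**
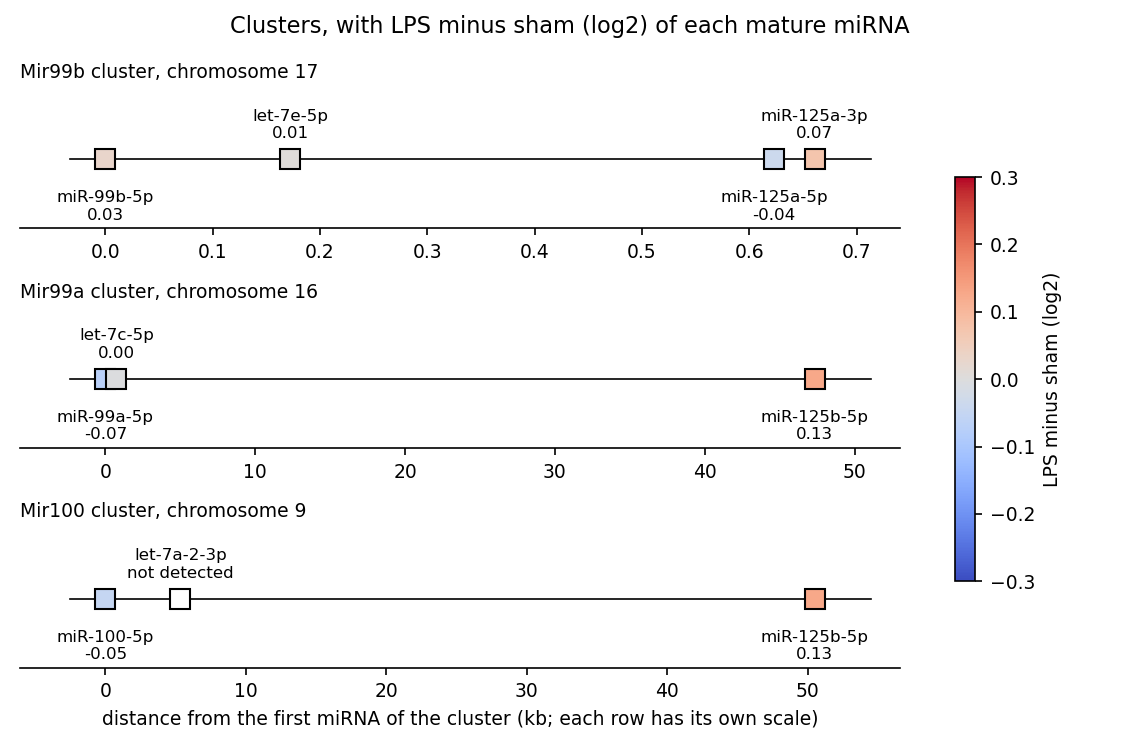
Positions of the mature miRNAs in the 3 clusters, as distance in kb from the first miRNA of each cluster, with each row on its own scale, and LPS minus sham in log2 units as colour and number. For Mirlet7a-2 only the 3p arm, let-7a-2-3p, is drawn, marked as not detected. Its 5p arm, let-7a-5p, was above background on every array and differed by -0.03. miR-125b-5p appears in 2 clusters because 2 genes give the same molecule, and its 0.13 is the largest of the values drawn, against -0.07 for miR-99a-5p and -0.05 for miR-100-5p.

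All 8 arrays lay on 1 slide read in 1 scan, with LPS arrays in one slide row and sham arrays in the other, and the row on the slide therefore cannot be told apart from the group. On each array 15.8% to 17.5% of the non-control spots were well above background. The array profiles correlated at 0.959 to 0.998 across the 338 miRNAs tested, which are not independent replicates. Values below are log2 signals, summed over the probes of a miRNA, less the log2 of each array's 75th percentile signal. A value says how one miRNA varied between arrays and not how abundant it was beside another miRNA, because probes differ in brightness. In whole kidney, fewer cells of a type and less miRNA per cell cannot be told apart.

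All 6 members were above background on 8 of 8 arrays, so each had a measured level in both groups. None passed the test between LPS and sham kidneys (limma, Benjamini-Hochberg adjusted over 338 miRNAs, threshold 0.05), and none had groups that did not overlap. Among all 338 tested miRNAs 40.2% passed, 14.8% higher and 25.4% lower in LPS kidneys, and the groups did not overlap for 37.0%. At an unadjusted p under 0.05 the count was 0 of 6 members, against 48.2% of all tested. The members' median log2 difference was -0.003, and over all tested miRNAs it was -0.08.

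Among the miR-99 and miR-100 miRNAs, miR-99a-5p was at 1.19, 1.39, 1.25 and 1.31 on LPS arrays 6, 10, 11 and 12, against 1.37, 1.43, 1.33 and 1.29 on sham arrays 5, 6, 7 and 8. LPS array 10 lay among the sham values and LPS arrays 6 and 11 lay below all of them. The log2 difference was -0.07 ± 0.06 (SE, 95% interval -0.21 to 0.07, limma adjusted p = 0.371).

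miR-100-5p, which differs from it at the single base shown above, was at -0.62, -0.45, -0.56 and -0.53 on the LPS arrays and -0.49, -0.39, -0.52 and -0.57 on the sham arrays. LPS array 6 was the lowest and sham array 6 the highest, as for miR-99a-5p, and the other values mixed. Its difference was -0.05 ± 0.06 (SE, 95% interval -0.19 to 0.09, adjusted p = 0.551). These were the members whose call turned on scaling: scaled to the labelling spike-ins, miR-99a-5p differed by -0.21 (adjusted p = 0.0233) and miR-100-5p by -0.19 (adjusted p = 0.0381), both called lower. That scaling moved the median of all tested miRNAs to -0.23. A factor per array shifts every miRNA alike. The distances of miR-99a-5p and miR-100-5p to the median, 0.01 and 0.03, were therefore bound to be the same under either scaling. They cannot say which scaling is right.

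miR-99b-5p, from the chromosome 17 cluster, was at -0.82, -0.61, -0.72 and -0.73 on the LPS arrays, against -0.72, -0.59, -0.79 and -0.89 on the sham arrays. The sham arrays held both the highest and the lowest value. The difference was 0.03 ± 0.08 (SE, 95% interval -0.15 to 0.21, adjusted p = 0.785).

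In the miR-125 family, miR-125a-5p was at 0.53, 0.68, 0.67 and 0.71 on the LPS arrays and 0.72, 0.83, 0.64 and 0.55 on the sham arrays. The LPS values lay within or just below the sham range. The difference was -0.04 ± 0.07 (SE, 95% interval -0.21 to 0.13, adjusted p = 0.725).

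The opposite arm, miR-125a-3p, was at -2.01, -2.24, -2.28 and -2.11 on the LPS arrays, against -2.04, -2.36, -2.18 and -2.35 on the sham arrays. Its arrays did not rank as those of the 5p arm did: LPS array 6, the lowest for miR-125a-5p, was the highest here. The difference was 0.07 ± 0.09 (SE, 95% interval -0.14 to 0.28, adjusted p = 0.558).

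miR-125b-5p had the largest difference of the 6. It was at 2.81, 3.03, 2.99 and 3.05 on the LPS arrays and 2.79, 3.04, 2.75 and 2.78 on the sham arrays. In each group 1 array had a value like those of the other group: LPS array 6 lay near the low sham values, and sham array 6 lay among the high LPS values. This was not particular to miR-125b-5p. LPS array 6 was also the lowest LPS array, and sham array 6 the highest sham array, for the other 5p members, let-7a-5p and let-7c-5p. The difference was 0.13 ± 0.09 (SE, 95% interval -0.07 to 0.32, adjusted p = 0.255), and 0.20 without sham array 6 (adjusted p = 0.0851), the array whose omission moved it most. With 1 array left out in turn it ran from 0.099 to 0.20 (limma adjusted p from 0.0851 to 0.446).

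**Figure D2:**
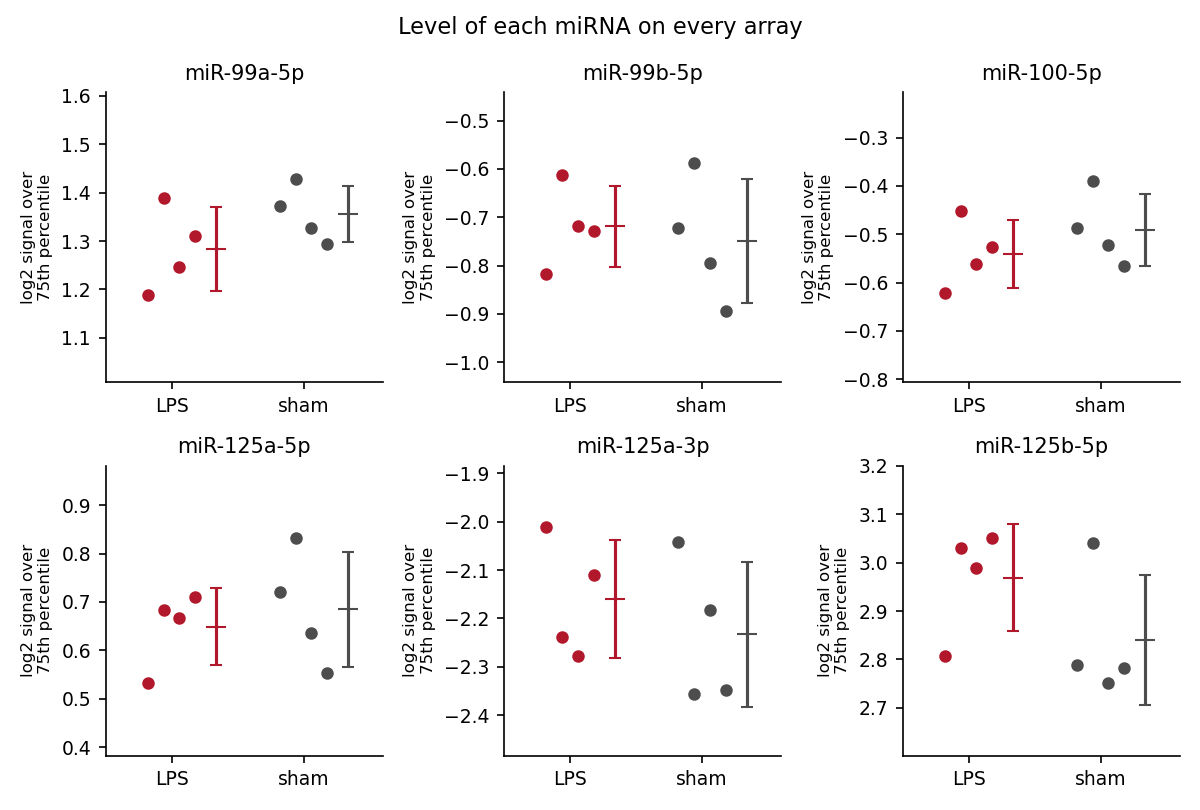
Log2 signal relative to the array's 75th percentile for each of the 6 miRNAs, 1 point per array in order of replicate number, LPS left and sham right, with mean and SD (n = 4 per group) beside the points. Every panel spans 0.6 log2 units. The groups overlap in every panel, and for miR-125b-5p LPS array 6 (2.81) and sham array 6 (3.04) lie with the other group.

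As folds of LPS over sham, the 95% intervals under this scaling ran from 0.864, the lower limit of miR-99a-5p, to 1.25, the upper limit of miR-125b-5p. Over the alternatives that fit whole miRNAs, the limits ran from 0.777, for miR-99a-5p scaled to spike-ins, to 1.36, for miR-125a-3p when the same fit was run on the authors' deposited table. Each member's difference took the other sign under at least 1 of the alternatives tried, so no direction is given for any of them. Among the 24 that fit whole miRNAs, the sign changed under 1 for miR-99a-5p and 1 for miR-125b-5p. It changed under 2 for miR-125a-3p, 3 for miR-100-5p, 4 for miR-125a-5p and 5 for miR-99b-5p. Apart from spike-in scaling, 95% intervals left out 0 without a call for miR-125b-5p with no scaling and without sham array 6. For miR-99a-5p that was so under quantile normalization. Among all 338 miRNAs, 94 were called with a difference beyond 1.25-fold, the wider of the first pair of limits. Relative to the median of all tested, the differences were 0.01 for miR-99a-5p, 0.03 for miR-100-5p, 0.05 for miR-125a-5p, 0.11 for miR-99b-5p, 0.16 for miR-125a-3p and 0.21 for miR-125b-5p.

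**Figure D3:**
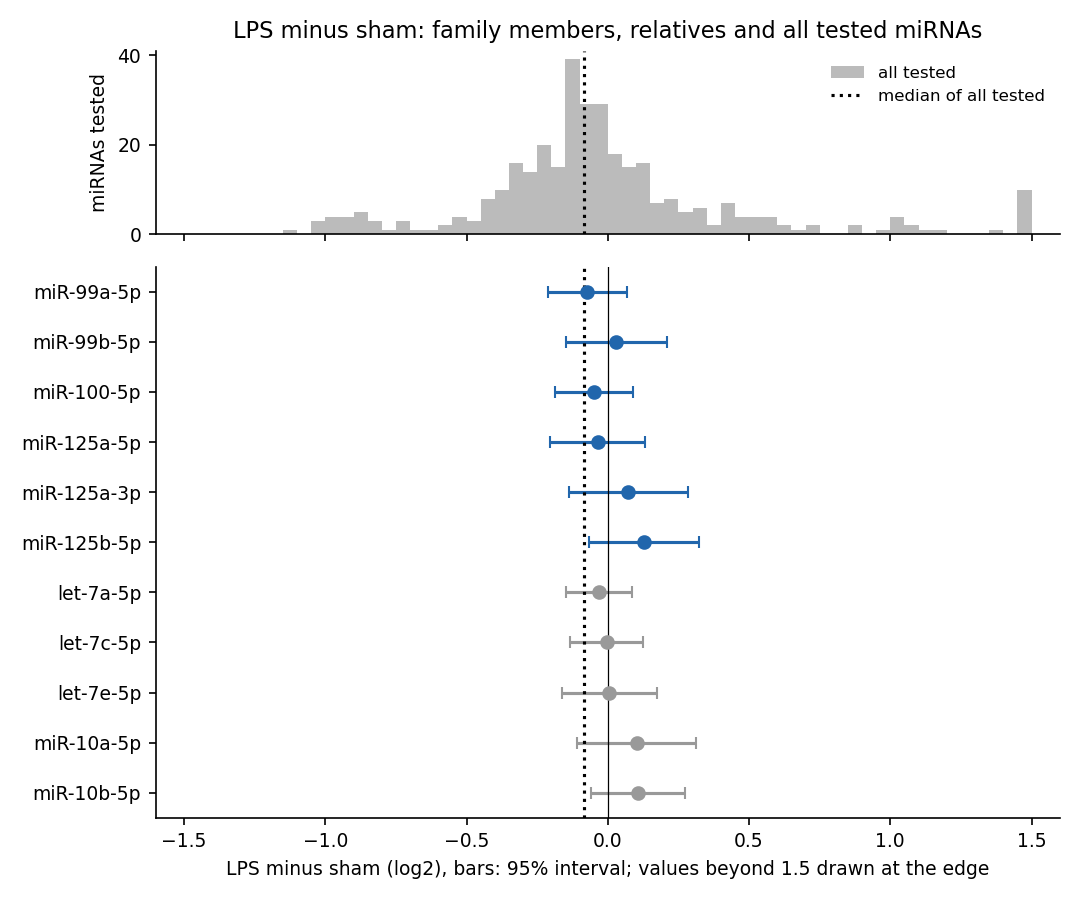
Top, histogram of LPS minus sham (log2) over the 338 miRNAs tested, with values beyond 1.5 drawn at the edge and the median (-0.08) dotted. Bottom, the same difference with its 95% interval for the 6 family members (blue) and for clustered let-7 and miR-10 relatives (grey), where all intervals include 0.

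The array carries the members on 14 probes of 13 to 19 bases, in 180 spots per array. Each probe is the complement of the 3′ part of its miRNA and leaves at least the first 3 bases unpaired, so the 5′ end of the seed was not read by any of them. The 19-base probes of miR-99a-5p and miR-100-5p are shown, as deposited, with the 1 base at which they differ in capitals.
miR-99a-5p probe: cacaagAtcggatctacgg
miR-100-5p probe: cacaagTtcggatctacgg
With 1 mismatch between probe and the other miRNA, signals of miR-99a-5p and miR-100-5p may include each other, which was not tested. The miR-125b-5p probes had at least 5 mismatches to any other miRNA in the RefSeq table without gaps, and the miR-99b-5p probes had at least 3. The miR-100-5p probes had 2 mismatches to miR-10a-5p, and 3 of the 4 miR-125a-3p probes had 2 to miR-125b-1-3p and miR-125b-2-3p.

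At the level of probes, 13 of the 14 were above background on every array of at least 1 group. None passed the test in a limma fit over 633 probes, of which 38.9% passed, and the members' probe differences ran from -0.16 to 0.16 log2 units. The lowest was that of the 18-base miR-99a-5p probe (-0.16 ± 0.06, SE, adjusted p = 0.0732), while the 19-base probe of the same miRNA was at -0.04 ± 0.06. The probes of miR-100-5p fell on either side of 0, at -0.07 ± 0.06 for 19 bases and 0.08 ± 0.07 for 18 bases.

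The miR-125b-5p probes differed by 0.15 ± 0.08 (17 bases) and 0.05 ± 0.09 (16 bases). Their spots agreed closely: the median coefficient of variation between the spots of a probe on 1 array was 3.42% and 2.73%. For miR-125a-3p the 16-base, 15-base and 14-base probes differed by 0.14 ± 0.11, 0.16 ± 0.06 and -0.11 ± 0.13, and the 13-base probe was not well above background on any array. No mean intensity of a miR-125a-3p probe exceeded 50.6 on the scanner's scale, and the spots of its dimmest probe varied by 22.9%, so this arm was measured with less signal over background than the others.

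**Figure D4:**
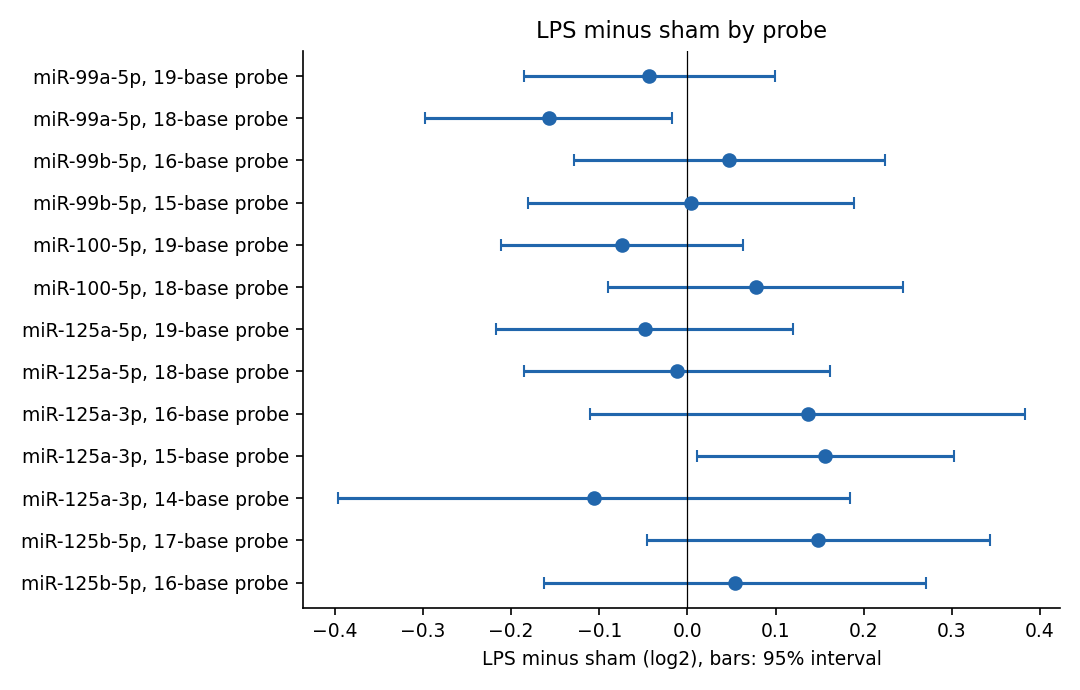
LPS minus sham (log2) with its 95% interval for the 13 member probes that passed the detection filter, named by miRNA and probe length. The points lie between -0.16 and 0.16, and probes of one miRNA can fall on both sides of 0, as for miR-100-5p. The intervals of the 18-base miR-99a-5p probe and the 15-base miR-125a-3p probe leave out 0, and neither probe passed after adjustment.

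Ratios of 2 miRNAs on the same array do not depend on a scaling factor per array, and they ask whether miRNAs of one cluster, one hairpin or one family kept their proportion. Of 11 ratios compared, 0 passed after adjustment (2-sided exact permutation, Benjamini-Hochberg over 11). The smallest p that 4 against 4 arrays allow (0.0286) was reached by 2, and the same 2 had groups that did not overlap, 18.2% of these 11. Both involved miR-125b-5p. The share among ratios of other tested miRNAs was not computed, so this count has no background of its own. For single tested miRNAs the groups did not overlap in 37.0%. At least 7 ratios would have had to reach that smallest p for any to pass the adjustment, so a single changed ratio could not have passed.

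The log2 ratio of miR-125b-5p to miR-99a-5p, which share the chromosome 16 cluster, was 1.62, 1.64, 1.74 and 1.74 on LPS arrays 6, 10, 11 and 12, against 1.42, 1.61, 1.42 and 1.49 on sham arrays 5, 6, 7 and 8. Every LPS array was above every sham array, although LPS array 6 and sham array 6 nearly touched. The ratio was higher by 0.20 in LPS kidneys (exact permutation p = 0.0286, adjusted p = 0.157). Its mean was 1.69 ± 0.07 in LPS and 1.48 ± 0.09 in sham kidneys (SD, n = 4 each).

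Against miR-100-5p, its neighbour on chromosome 9, miR-125b-5p was higher by 0.18 in LPS kidneys, with a log2 ratio of 3.51 ± 0.07 in LPS and 3.33 ± 0.07 in sham kidneys (SD, n = 4 each, exact permutation p = 0.0571, adjusted p = 0.157). LPS array 6 (3.428) lay just below sham array 6 (3.431), so the groups overlapped by that pair. Between the seed-sharing 5p arms, the log2 ratio of miR-125a-5p to miR-125b-5p was -2.27, -2.35, -2.32 and -2.34 on the LPS arrays and -2.07, -2.21, -2.12 and -2.23 on the sham arrays. All 4 LPS arrays were below all 4 sham arrays, by -0.16 on average (exact permutation p = 0.0286, adjusted p = 0.157).

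In the chromosome 17 cluster, the log2 ratio of miR-125a-5p to miR-99b-5p was 1.37 ± 0.06 in LPS and 1.43 ± 0.01 in sham kidneys (SD, n = 4 each, exact permutation p = 0.0857, adjusted p = 0.189). The sham arrays lay within 1.42 to 1.45 and the LPS arrays spread from 1.30 to 1.44. The arm ratio miR-125a-3p to miR-125a-5p was -2.81 ± 0.18 in LPS and -2.92 ± 0.19 in sham kidneys (SD, n = 4 each, exact permutation p = 0.543, adjusted p = 0.597).

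Across the miR-99 family, the log2 ratio of miR-99a-5p to miR-99b-5p was 2.00 ± 0.03 in LPS and 2.11 ± 0.07 in sham kidneys (SD, n = 4 each, exact permutation p = 0.0571, adjusted p = 0.157). That of miR-99a-5p to miR-100-5p was 1.82 ± 0.02 in LPS and 1.85 ± 0.02 in sham kidneys (SD, n = 4 each, exact permutation p = 0.171, adjusted p = 0.269). The 19-base probes of the last pair are those shown above, separated by a single base.

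**Figure D5:**
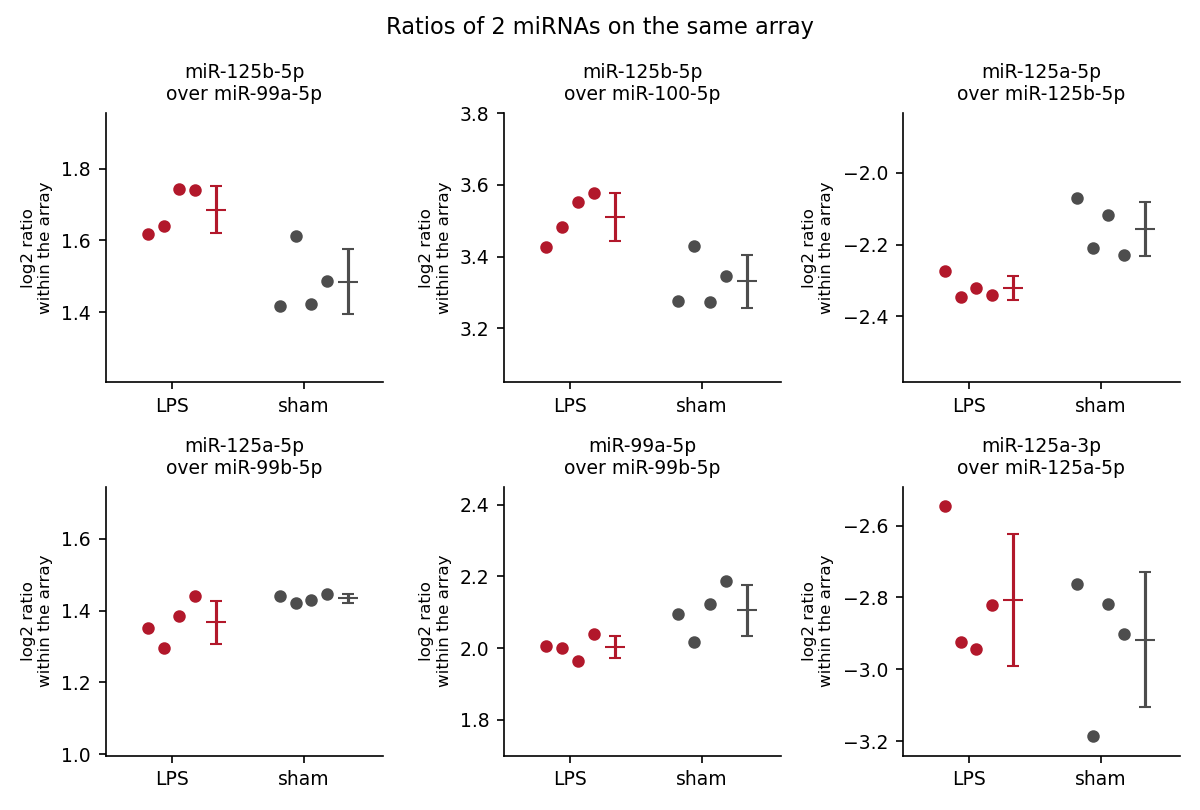
Log2 ratio of 2 miRNAs on the same array for 6 of the 11 pairs, 1 point per array in order of replicate number, LPS left and sham right, with mean and SD (n = 4 per group). Every panel spans 0.75 log2 units. The groups are apart for miR-125b-5p over miR-99a-5p and for miR-125a-5p over miR-125b-5p and overlap in the other 4 panels.

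The other arms of the same hairpins were not seen: 0 of 5 (miR-99a-3p, miR-99b-3p, miR-100-3p, miR-125b-1-3p and miR-125b-2-3p) were above background on any array. Neither were the 3 other miRNAs on the array with the miR-125 seed, miR-351-5p, miR-6367 and miR-6394. The detected carriers of this seed were therefore miR-125a-5p and miR-125b-5p, at the sensitivity of the probes.

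The let-7 miRNAs of the 3 clusters, which repress growth genes and whose precursors are blocked by Lin28, gave 0 of 3 calls. Among all 338 tested miRNAs 40.2% were called, and 3 miRNAs are too few to set against that share. let-7a-5p differed by -0.03 ± 0.05 (adjusted p = 0.670), let-7c-5p by -0.004 ± 0.06 (adjusted p = 0.953) and let-7e-5p by 0.01 ± 0.07 (SE, adjusted p = 0.953). let-7a-5p and let-7c-5p also come from genes elsewhere (Mirlet7a-1 on chromosome 13 and Mirlet7c-2 on chromosome 15), so they do not report on the clusters alone. Their other arms, 0 of 3, were not above background on any array. Within arrays, the log2 ratio of miR-99b-5p to let-7e-5p was -2.78 ± 0.06 in LPS and -2.81 ± 0.05 in sham kidneys, and that of miR-125a-5p to let-7e-5p was -1.42 ± 0.02 in LPS and -1.37 ± 0.05 in sham kidneys (SD, n = 4 each, exact permutation, adjusted p = 0.597 and 0.262).

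The ratio of miR-99a-5p to let-7c-5p was -3.80 ± 0.06 in LPS and -3.74 ± 0.06 in sham kidneys, and that of miR-100-5p to let-7a-5p was -5.84 ± 0.04 in LPS and -5.83 ± 0.06 in sham kidneys (SD, n = 4 each, exact permutation adjusted p = 0.275 and 0.686). miR-10a-5p and miR-10b-5p, Hox cluster miRNAs that resemble miR-99 and miR-100 beyond the seed, differed by 0.10 ± 0.09 and 0.11 ± 0.07 (SE, limma adjusted p = 0.403 and 0.269).

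With each group's mean subtracted, the 5p members varied together over the 8 arrays. The median Pearson r of their 10 pairs was 0.886, with a range of 0.789 to 0.967. Over all pairs of tested miRNAs, dim ones included, it was 0.09. miRNAs outside the families followed the members as closely, such as miR-26a-5p with miR-99a-5p (r = 0.987) and miR-30c-2-3p with miR-99b-5p (r = 0.985). Varying together was therefore not particular to these families. miR-125a-3p went the other way, with r from -0.58 to -0.21 against the 5p members. All these values share the array, its hybridisation and its scaling factor. What the array and the sample each contributed to the correlations cannot be told apart, and no p is given.

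The miRNAs most like each member by this measure were miR-26a-5p for miR-99a-5p (r = 0.987) and for miR-100-5p (r = 0.987), and miR-30c-2-3p for miR-99b-5p (r = 0.985). For miR-125a-5p they were miR-139-5p (r = 0.956) and its cluster neighbour let-7e-5p (r = 0.931), and for miR-125b-5p let-7i-5p (r = 0.981). miR-125a-3p was most like miR-7020-5p (r = 0.888), which was lower in LPS kidneys by -0.66 log2 units (limma adjusted p = 3.79e-04). The next in order were miR-200a-3p and miR-100-5p for miR-99a-5p, miR-100-5p and miR-139-5p for miR-99b-5p, and miR-30c-2-3p and miR-27a-3p for miR-100-5p, all with r of 0.951 or more. For miR-125b-5p they were miR-148a-3p and miR-181a-5p (r = 0.973 and 0.959), for miR-125a-5p miR-34a-5p (r = 0.923), and for miR-125a-3p miR-1897-5p and miR-8102 (r = 0.882 and 0.874).

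As a check of the tissue, 6 of 6 miRNAs abundant in kidney tubules were above background on every array, while liver miR-122-5p was on none. The counts for cell type markers, here and in the next paragraph, are to be read against all tested miRNAs. Of these 14.8% were called higher and 25.4% lower in LPS kidneys, 40.2% in either direction. Of 6 leukocyte miRNAs 2 rose, the myeloid miR-223-3p by 0.86 and miR-155-5p by 1.68 log2 units. For the other 4, none of which passed, LPS minus sham was 0.26 for miR-142a-3p, 0.13 for miR-142a-5p, -0.01 for miR-342-3p and -0.22 for miR-150-5p. The list's summed log2 level was 1.79 to 1.89 in LPS and 1.18 to 1.64 in sham kidneys. Such a sum is taken over linear signals, so miRNAs with bright probes weigh most in it, here and in the lists below. Of 3 red-cell miRNAs 2 rose (miR-451a and miR-144-3p) and miR-486a-5p did not pass the detection filter, with a summed level of 1.04 to 3.79 in LPS and -0.86 to 1.66 in sham kidneys.

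Of the 6 tubule miRNAs 3 fell, miR-192-5p, miR-194-5p and miR-204-5p, against 25.4% called lower among all tested miRNAs. The summed level of all 6 was 6.02 to 6.22 in LPS and 6.18 to 6.30 in sham kidneys. The brightest of the 6 was miR-30a-5p, which was not called, with a mean of 4.84 in LPS and 4.95 in sham kidneys. Of 5 smooth muscle and stromal miRNAs 2 fell, miR-145a-5p by 0.44 and miR-199a-5p by 0.25 log2 units. For the other 3, none of which passed, LPS minus sham was 0.16 for miR-199a-3p, the other arm of the miR-199a hairpins, 0.05 for miR-143-3p and -0.12 for miR-214-3p, and the list had a summed level of 2.84 to 3.002 in LPS and 2.76 to 2.95 in sham kidneys. Neither endothelial miRNA passed the test, with a summed level of 4.10 to 4.27 in LPS and 4.13 to 4.23 in sham kidneys. Of 2 striated muscle miRNAs miR-1a-3p did not pass the test and miR-133a-3p was not above background. The part of cell composition in the levels of the 6 members was not tested.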

How the data were processed

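Scanner files of 1-colour (Cy3) arrays were used, whose spot intensities, as deposited, had a spatially fitted background surface removed and no scaling between arrays, per the file headers. Agilent Feature Extraction 12.0.3.1 is named in the submitters' processing notes. The authors also deposited a table of linear ratios, which for 383 miRNAs lay within 0.01 log2 of the scanner's total signal in 100% of values after a factor per array and miRNA. Its scale is thus linear and each miRNA is centred, while the origin of the array factors is unknown. Its column medians were 0.958, 0.960, 1.01 and 1.03 for LPS replicates 6, 10, 11 and 12, and 0.995, 1.06, 1.05 and 0.980 for sham replicates 5, 6, 7 and 8. It served as an alternative.

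Spots of one probe were averaged, without those flagged as outliers. Array values were then divided by the 75th percentile of 551 probes, those detected on all 8 arrays (over 50% of spots flagged well above background), probes of a miRNA were summed, floored at -4.68 and log2-transformed. No member value was at the floor and no non-control spot was saturated. The 338 miRNAs detected on every array of a group were tested with limma 3.58.1 in R 4.3.3 (2-sided, no covariates, Benjamini-Hochberg, threshold 0.05), and the fit was tested on simulated data. The number of arrays limits the precision. Named were the 6 members, the other arms and let-7 partners of their clusters, seed sharers, miR-10, the 3 miRNAs most like each member, and cell type markers. Members, lists and tests were chosen with earlier results of these data known. The fit over single probes was added after seeing the data.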

Additional observations from a re-analysis of the deposited data

Results flagged for a closer look

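Over the members, their ratios and the listed miRNAs, 86 sets of 4 arrays of one group were examined, and in 3 of them a single array stood well away from the rest. About 1 in 20 such sets, or 4.3 here, does so by chance. miR-125b-5p was at 3.04 on sham array 6 and at 2.75 to 2.79 on the other sham arrays. let-7e-5p, from the miR-99b and miR-125a cluster, was at 1.92 on LPS array 6 and at 2.11 to 2.12 on the other LPS arrays. The stromal miR-199a-5p was at -0.55 on LPS array 10 and at -0.79 to -0.76 on the other LPS arrays.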

How the results depend on the processing

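The 0 member calls held under 24 of 25 alternatives, and scaling to spike-ins gave 2 (miR-99a-5p and miR-100-5p, both lower). The 136 calls over all miRNAs became 60 with no filter, where many more miRNAs were tested, 80 with slide column as a block, 246 of 633 in the fit on probes, and 88 to 151 with 1 array left out, with 88 without LPS array 12 or sham array 6. The cause of these shifts was otherwise not tested. The split of higher and lower calls was 50 and 86, against 55 and 53 with the percentile over all probes, 57 and 49 with no scaling, 34 and 150 with spike-ins and 46 and 53 in the deposited table. No call went with the following changes of sign. Spike-in scaling gave -0.11 for miR-99b-5p, -0.070 for miR-125a-3p and -0.014 for miR-125b-5p. No scaling gave 0.0042 for miR-99a-5p, 0.027 for miR-100-5p and 0.040 for miR-125a-5p, and the percentile over all probes 0.0071 for miR-100-5p and 0.020 for miR-125a-5p. Quantile normalization gave -0.12 for miR-99b-5p, and ratios of 0.066 for miR-125a-5p over miR-99b-5p, 0.16 for miR-99a-5p over let-7c-5p, 0.44 for miR-100-5p over let-7a-5p and -0.11 for miR-99b-5p over let-7e-5p. Cyclic loess gave -0.051 for miR-99b-5p, -0.033 for miR-99b-5p over let-7e-5p and 0.0072 for miR-99a-5p over miR-100-5p. Normexp gave -0.016 for miR-125a-3p and -3.9e-04 for miR-99b-5p over let-7e-5p. The mean of probe logs gave 0.0016 for miR-100-5p and 0.039 for miR-100-5p over let-7a-5p, and the brightest probe -0.0017 for miR-99b-5p over let-7e-5p and 0.031 for miR-99a-5p over miR-100-5p. With 1 array left out, miR-99b-5p ran from -0.018 to 0.084, miR-125a-5p from -0.080 to 0.013 and miR-100-5p over let-7a-5p from -0.036 to 7.5e-04. The ratios of miR-125b-5p to miR-99a-5p (0.18 to 0.25) and miR-125a-5p to miR-125b-5p (-0.20 to -0.13) kept their sign under 15 of 15 alternatives, with adjusted exact permutation p from 0.0786 to 0.210. So did those of miR-125b-5p to miR-100-5p, miR-125a-3p to miR-125a-5p, miR-125a-5p to let-7e-5p and miR-99a-5p to miR-99b-5p. A kept sign was thus not particular to the first pair of ratios. For that pair, whose groups did not overlap, leaving out 1 array could not have turned the sign. The scanner's total signal and the deposited table gave nearly the main values for both of that pair, so they add no separate check of it. No paired analysis was possible because the groups share 1 replicate number only, apart from the block by slide column given above. Signal over background limits miR-125a-3p most.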
